A study of Mus musculus with 4 samples.

Results

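The islet peptide genes examined were *Gal*, *Tac1*, *Vgf*, *Npy* and *Ucn3*, 5 of the 31053 genes counted. They were selected on earlier results of these libraries: *Gal*, *Tac1* and *Vgf* were chosen by their place among the leading genes of cytokine-treated α cells, so their higher levels in those cells are a description of that choice. Islets from several adult male C57BL/6 mice (C57BL6/J in the methods) were pooled, divided into 4 samples and cultured in serum-containing medium. These samples were left untreated or were exposed ex vivo for 6 h to IL-1B (interleukin-1β), to IFNg (interferon-γ) or to both cytokines. After dissociation, single cells were captured in droplets and their RNA 3′ ends sequenced, with transcripts told apart by unique molecular identifiers (UMIs). Each condition gave 1 library from the same pool, so conditions could not be compared against a replicate spread and no p-value is given.

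These genes encode precursors that endocrine cells and neurons cut into small secreted peptides. Galanin, from *Gal*, is an inhibitory neuropeptide that lowers insulin secretion through G protein-coupled receptors, and *Tac1* encodes the tachykinins substance P and neurokinin A. *Vgf* encodes a granule protein of the granin family, and *Npy* encodes neuropeptide Y, an inhibitor of insulin secretion. *Ucn3* encodes urocortin 3, a peptide that mature β cells co-release with insulin and that stimulates δ cells to secrete somatostatin.

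*Gal* (ENSMUSG00000024907) lies on the minus strand of chromosome 19 from 3409915 to 3414544, *Tac1* (ENSMUSG00000061762) on the plus strand of chromosome 6 from 7554879 to 7565834, and *Vgf* (ENSMUSG00000037428) on the plus strand of chromosome 5 from 137026392 to 137033351. *Npy* (ENSMUSG00000029819) lies on the plus strand of chromosome 6 from 49822710 to 49829507, and *Ucn3* (ENSMUSG00000044988) on the minus strand of chromosome 13 from 3940688 to 3945349. These coordinates follow GENCODE M21 on GRCm38, where none of the 5 genes overlaps another gene.

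Upstream sequences are shown for *Gal* and *Tac1*, which were near 0 in untreated α-like cells and higher with IL-1B, and for *Ucn3*, the β-cell gene that was lower with IL-1B. Start sites from RefSeq (GRCm38.p6) were used for 4 of the 5 genes, and the upstream sequence of *Vgf* was not analysed here. The 250 bases before each start were searched on both strands for 6 motifs: TGACG, the core of the cAMP response element, TGACGTCA, the whole element, which contains that core, TGANTCA for AP-1, the NF-κB motif, TTCNNNGAA for interferon-activated STAT factors, and TATAAA. Capitals mark a match. The *Gal* sequence is chr19:3414545-3414794 on the minus strand. For *Tac1*, chr6:7554811-7554878 on the plus strand is shown, since GENCODE M21 starts a longer transcript after it. For *Ucn3*, chr13:3945350-3945599 on the minus strand is shown.
Gal: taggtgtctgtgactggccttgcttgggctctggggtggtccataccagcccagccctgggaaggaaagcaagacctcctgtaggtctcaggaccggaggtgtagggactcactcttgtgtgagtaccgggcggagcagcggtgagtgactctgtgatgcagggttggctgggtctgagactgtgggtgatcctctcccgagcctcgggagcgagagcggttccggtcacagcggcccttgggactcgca
Tac1: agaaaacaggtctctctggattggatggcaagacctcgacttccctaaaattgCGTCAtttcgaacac
Ucn3: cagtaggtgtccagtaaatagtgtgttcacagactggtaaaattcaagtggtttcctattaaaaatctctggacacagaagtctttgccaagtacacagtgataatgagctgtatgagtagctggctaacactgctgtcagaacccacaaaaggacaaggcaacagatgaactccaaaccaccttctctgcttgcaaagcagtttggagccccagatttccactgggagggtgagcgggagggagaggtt
*Tac1* held 2 TGACG matches, both on the opposite strand as CGTCA, at 197 to 193 and at 43 to 39 bases before the RefSeq start, of which the first is printed above. These letters occur in 17.8% of 32851 upstream windows of the same length. None of the 6 motifs was found in the windows of *Gal*, *Npy* or *Ucn3*, which says only that these letters are not in these windows. The share of all windows was 1.55% for TGACGTCA, 6.75% for TGANTCA, 1.41% for the NF-κB motif, 7.02% for TTCNNNGAA and 12.4% for TATAAA.

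Kept cells, those in which 200 to 4000 genes were detected and mitochondrial UMIs did not exceed 12%, numbered 1521 in the untreated library, 2018 with IL-1B, 2122 with IFNg and 1810 with both cytokines. The untreated library was the deepest, with a median of 15454 UMIs per kept cell against 7462.5, 9615 and 11123.5 in the same order. It also had 843 barcodes set aside for exceeding 4000 genes, against 146, 345 and 222. The libraries had no more than 2 kept barcodes in common in any pair. A cell was called β-like, α-like, δ-like or PP-like when insulin, glucagon, somatostatin or pancreatic polypeptide transcripts made up at least 3% of its UMIs and at least 3 times the next hormone. This gave 5024 β-like, 894 α-like, 292 δ-like and 176 PP-like cells of 7471, while 392 had mixed hormones and 693 had no leading hormone.

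The α-like cells numbered 89 in the untreated library, 343 with IL-1B, 292 with IFNg and 170 with both cytokines. All 8 α-cell markers listed, among them the transcription factors *Irx1* and *Irx2*, were detected in at least 10% of these cells in each library. The defining neuronal markers *Prph* and *Stmn2* and the Schwann cell markers *Sox10* and *Cdh19* were at 0 in α-like cells of all 4 libraries. Their neuronal list of 6 genes nevertheless summed to 39.6 CPM (UMIs scaled to 1000000 per class and library) without treatment, 85.9 with IL-1B, 67.0 with IFNg and 203 with both, of which *Tubb3* and *Elavl4* made up all.

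*Gal* was close to 0 in untreated α-like cells and abundant after IL-1B. Its level was 2.26 CPM in the untreated library (2 UMIs), 118 with IL-1B (280 UMIs), 2.13 with IFNg (5 UMIs) and 91.9 with both cytokines (141 UMIs). The libraries thus fell into a low pair and a high pair, the high pair being those that received IL-1B. Relative to untreated cells *Gal* was 52.4-fold higher with IL-1B (95% interval 14.4 to 435) and 40.6-fold higher with both (11.05 to 339), while IFNg alone gave a ratio of 0.944 (0.155 to 9.92). All intervals here cover counting error only. With both cytokines *Gal* was 1.29-fold lower than with IL-1B alone (1.05 to 1.59).

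Few α-like cells carried *Gal*. A UMI was found in 2 of 89 untreated cells, 53 of 343 with IL-1B (15.5%, exact binomial interval 11.8% to 19.7%), 3 of 292 with IFNg and 25 of 170 with both (14.7%, 9.75% to 20.9%). Cells with at least 4000 UMIs were then thinned to that number, which sets their depth equal and left out 9, 33, 12 and 5 shallower α-like cells in the order untreated, IL-1B, IFNg and both (50, 76, 59 and 32 β-like cells). The thinned shares with *Gal* were 1.25%, 14.2%, 1.07% and 10.9%. The median cell with *Gal* held 2 UMIs in either IL-1B library, but the richest held 31 with IL-1B and 44 with both. The 5 richest cells supplied 45.7% of the *Gal* UMIs with IL-1B and 69.5% with both. They were 5 of 53 and 5 of 25 cells with *Gal*, so these 2 shares are not on an equal footing. Without those 5 cells the levels were 65.2 and 29.0 CPM, still above the 2.26 CPM of all untreated α-like cells.

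*Gal* was sparse in β-like, δ-like and PP-like cells, while cells of mixed hormones held it at 160.2 CPM with IL-1B. In β-like cells it reached 1.19 CPM untreated, 18.5 with IL-1B, 0.624 with IFNg and 3.55 with both, which is 15.6-fold (10.1 to 24.9) and 2.97-fold (1.82 to 5.01) above untreated for IL-1B and both. With both cytokines the β-like level was 5.23-fold lower than with IL-1B alone (3.87 to 7.16). A single β-like cell held 95 of the 191 UMIs with IL-1B, and without the 5 richest cells the 4 levels were 0.349, 4.69, 0.278 and 1.19 CPM. The log2 ratio to untreated of 3.96 with IL-1B was 2.91 without doublets called by Scrublet, and that of 1.57 with both cytokines was 0.49 after thinning. In δ-like cells there were 0, 2, 5 and 9 UMIs. In PP-like cells 19 of the 20 UMIs lay in 1 cell of the library with both cytokines. Macrophage-marked cells of the same libraries held none.

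*Tac1* had the same low pair and high pair of libraries. In α-like cells its level was 9.04 CPM untreated (8 UMIs), 250.1 with IL-1B (591 UMIs), 2.13 with IFNg (5 UMIs) and 315 with both (484 UMIs). It was 27.7-fold higher with IL-1B (13.9 to 64.4) and 34.9-fold higher with both (17.6 to 81.3), folds that rest on the 8 untreated UMIs and had log2 values of 6.40 and 6.64 after thinning instead of 4.79 and 5.12. In contrast to *Gal*, it was 1.26-fold higher with both than with IL-1B alone (1.12 to 1.42). Without the 5 richest cells of each library this order was reversed, at 166 CPM with IL-1B and 146 with both. That step trimmed the libraries unequally. It took 5 of 61 cells with the transcript and 34.9% of its UMIs with IL-1B, but 5 of 24 and 55.2% with both. The reversal therefore does not settle the order. With IFNg alone *Tac1* was 4.24-fold lower than untreated (1.22 to 16.5), a ratio of 5 UMIs to 8.

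A *Tac1* UMI was found in 4 of 89 untreated α-like cells, 61 of 343 with IL-1B (17.8%, 13.9% to 22.2%), 5 of 292 with IFNg and 24 of 170 with both (14.1%, 9.26% to 20.3%). The thinned shares were 1.25%, 13.5%, 0% and 13.3%. Cells with the transcript held much of it: the median positive cell had 4 UMIs with IL-1B and 15 with both, and the richest had 63 and 80. Cells with 10 or more UMIs numbered 20 with IL-1B and 15 with both, and none in the untreated and IFNg libraries. Those cells had glucagon shares of 17.2% and 16.8%, against 16.6% in cells without *Tac1* of either library. Without the 5 richest cells the levels were 166 and 146 CPM.

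*Tac1* was also found in a small share of β-like cells. Its β-like level was 0.0497 CPM untreated (1 UMI), 32.2 with IL-1B (332 UMIs), 0.139 with IFNg (2 UMIs) and 21.8 with both (350 UMIs). Because the untreated level rests on 1 UMI, the fold for IL-1B was 649 with an interval of 116 to 25702. The UMIs lay in 46 of 1200 cells with IL-1B (3.83%, 2.82% to 5.08%) and 40 of 1306 with both (3.06%, 2.2% to 4.15%), against 1 of 1203 untreated cells and 1 of 1315 with IFNg. In δ-like cells there were 0, 38, 0 and 29 UMIs, the 29 in 1 cell. PP-like cells had 0, 19, 0 and 0 UMIs, the 19 in 2 of 35 cells (5.71%). With both cytokines 0 of 49 PP-like cells had a UMI. The exact binomial interval of that share reaches 7.25%, so the 2 libraries cannot be told apart there. Cells of no leading hormone had 6, 115, 0 and 1 UMIs, the 115 in 8 of 207 cells. Macrophage-marked cells, counted for comparison, had no *Tac1* UMI in any of 32, 37, 44 and 31 cells. By the floor of 3 cells of the total, shares with a UMI of up to 9.38%, 8.11%, 6.82% and 9.68% remain possible. That floor sets no limit on cells that express *Tac1* below detection. Whether macrophages lack the gene was not tested. Endothelial-marked cells had 2 *Tac1* and 2 *Gal* UMIs with IL-1B, each in 2 of 34 cells, and none in the other libraries.

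**Figure D1:**
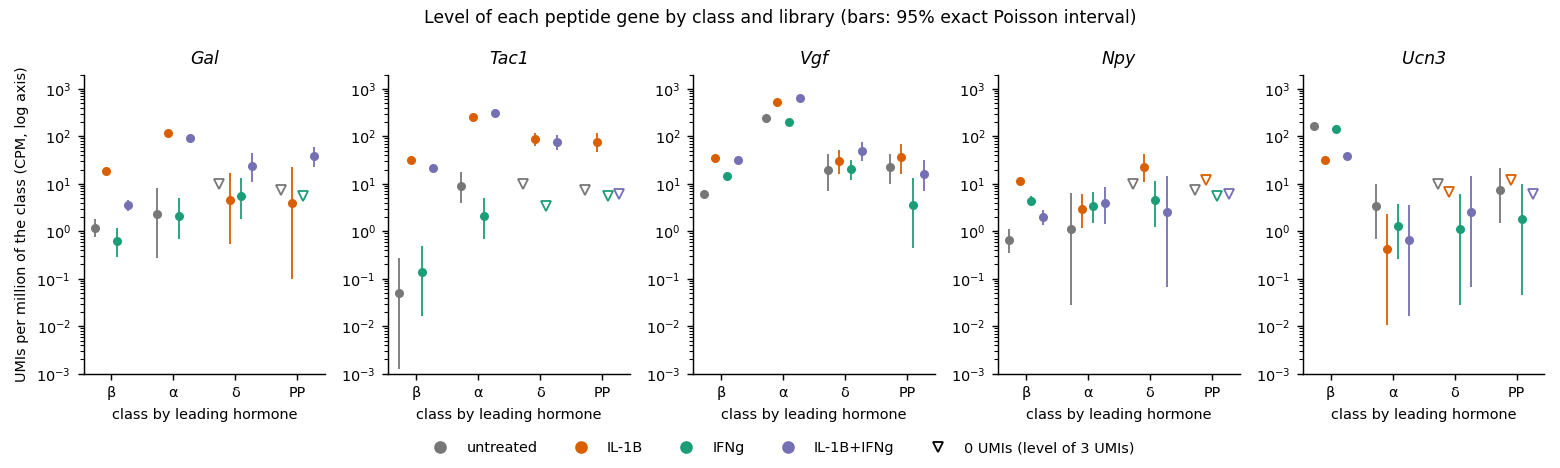
Level of each peptide gene (CPM, log axis) in β-like, α-like, δ-like and PP-like cells of the 4 libraries, with 95% exact Poisson intervals. Open triangles stand at the level of 3 UMIs where none was counted. In α-like cells *Gal* and *Tac1* lie at or above 91.9 CPM in the IL-1B libraries and below 9.1 CPM in the others, whereas *Ucn3* is a β-like gene that is lower in the IL-1B libraries.

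*Vgf* differed from these 2 genes in that most untreated α-like cells already carried it. Its α-like level was 246 CPM untreated, 529.8 with IL-1B, 196 with IFNg and 631 with both. That is 2.15-fold (1.86 to 2.49) and 2.56-fold (2.21 to 2.98) above untreated for IL-1B and both, and 1.26-fold below untreated for IFNg (1.07 to 1.48). A UMI was found in 64.0%, 78.7%, 64.0% and 82.4% of α-like cells, and in 48.8%, 73.2%, 41.8% and 75.2% after thinning. The transcript was spread over many cells, with the 5 richest cells holding 26.6%, 8.31%, 9.59% and 12.6% of the UMIs.

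In β-like cells *Vgf* was scarce, at 6.16 CPM untreated, 34.6 with IL-1B, 14.4 with IFNg and 31.9 with both. It was 5.61-fold higher with IL-1B (4.56 to 6.94) and 5.17-fold higher with both (4.24 to 6.34), and the 2 IL-1B libraries differed from each other by a ratio of 0.922 (0.803 to 1.06). The ratio of 2.34 with IFNg (1.86 to 2.95) was under 2-fold without an upper limit on detected genes, after thinning, with hormone genes left out of the totals and as a mean over cells. Thinned shares of β-like cells with *Vgf* were 1.82%, 9.88%, 3.74% and 9.34%. δ-like cells had 19.6, 29.7, 20.2 and 49.3 CPM from 6 to 19 UMIs per library. PP-like cells had 22.1, 36.0, 3.64 and 16.1 CPM from 2 to 9 UMIs per library, with a ratio to untreated of 0.165 with IFNg (0.0173 to 0.795) and 0.727 with both (0.244 to 2.12). Every α-like level was above every β-like level, and *Vgf* was at 0 in macrophage-marked cells of all 4 libraries.

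**Figure D2:**
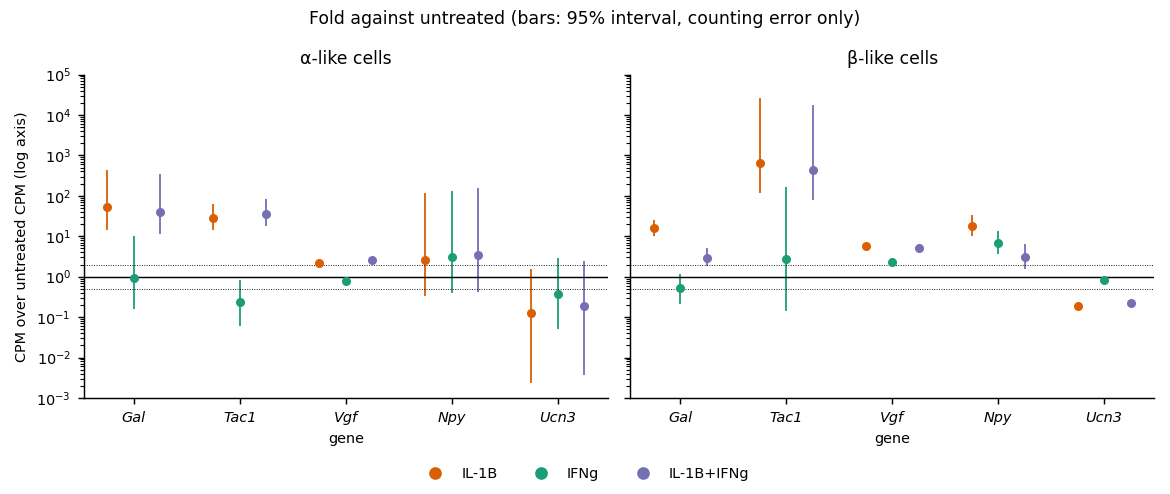
CPM of each gene in each cytokine library over its CPM in the untreated library (log axis), in α-like and β-like cells, with 95% intervals for counting error. Dotted lines mark 2-fold. *Gal*, *Tac1* and *Vgf* lie above 2-fold with IL-1B in both classes, and *Ucn3* in β-like cells lies at 0.186 with IL-1B and 0.228 with both.

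*Npy* was sparse in β-like cells, with 13, 117, 63 and 32 UMIs in the untreated, IL-1B, IFNg and combined libraries. These correspond to 0.646, 11.4, 4.37 and 1.99 CPM. The β-like level was 17.6-fold (9.89 to 34.0), 6.76-fold (3.68 to 13.4) and 3.08-fold (1.57 to 6.4) above untreated, in the order IL-1B, IFNg and both. With both cytokines it was 5.71-fold lower than with IL-1B alone (3.83 to 8.72). Only 5, 26, 12 and 12 β-like cells carried the transcript, and the 5 richest held between 56.4% and 100% of it, so each level rests on a few cells. In α-like cells there were 1, 7, 8 and 6 UMIs, and in PP-like cells none. Macrophage-marked cells had 1, 6, 1 and 4 *Npy* UMIs, and 1 cell of no leading hormone held 60 with IL-1B.

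*Ucn3* was the only member that was lower with IL-1B in the class that carries it. Its β-like level was 167 CPM untreated (3369 UMIs), 31.2 with IL-1B (321), 139 with IFNg (2010) and 38.1 with both (613). It was 5.37-fold lower with IL-1B (4.79 to 6.04), 4.39-fold lower with both (4.03 to 4.79) and 1.2-fold lower with IFNg (1.14 to 1.27). The level with both was 1.22-fold above that with IL-1B alone (1.07 to 1.41), and the order of the 4 libraries, from untreated through IFNg and both to IL-1B, had no overlap of neighbouring intervals.

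*Ucn3* was found in most untreated β-like cells, and in fewer of them in each cytokine library. The shares were 81.7%, 19.6%, 64.1% and 32.5% as counted and 46.6%, 10.8%, 36.8% and 13.0% after thinning. The richest untreated cell held 16 UMIs, and the richest cells of the IL-1B and combined libraries held 6 and 5. The 5 richest cells held 2.05% to 7.17% of the UMIs. In α-like cells there were 3, 1, 3 and 1 UMIs, and macrophage-marked cells had none. With hormone genes, which made up 42.2% of untreated β-like UMIs and 21.9%, 28.5% and 33.3% of the treated ones, left out of the totals, the log2 ratio was -2.86 with IL-1B instead of -2.43.

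**Figure D3:**
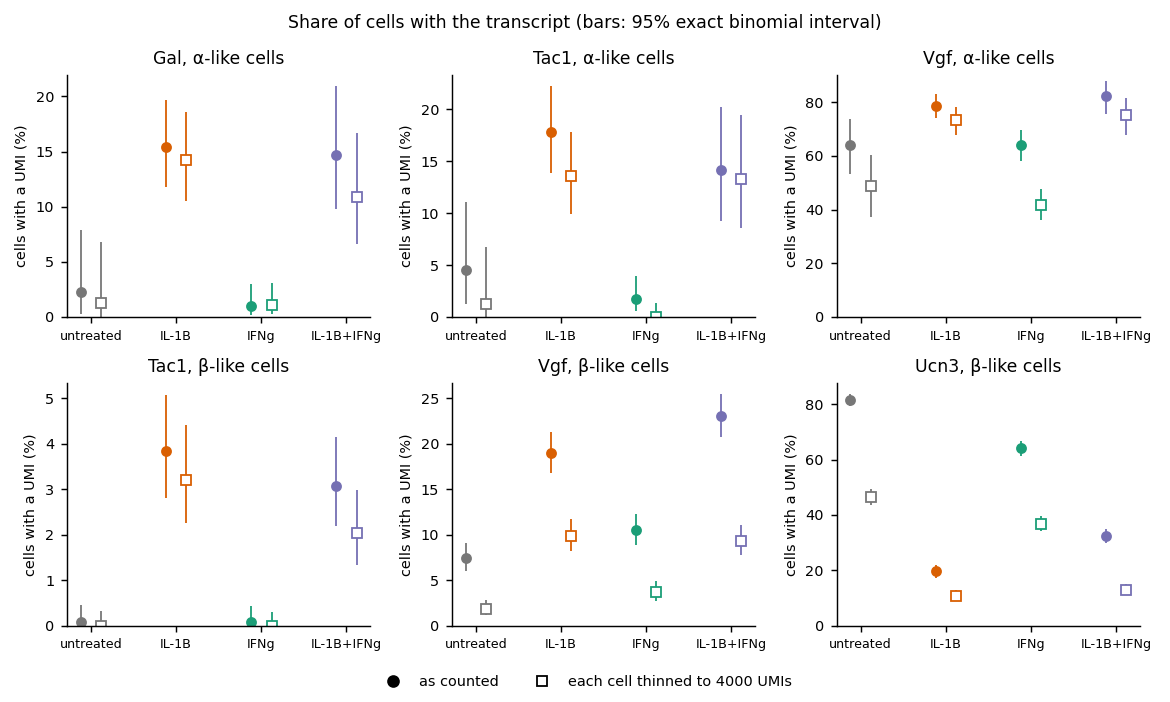
Share of cells with a UMI of *Gal*, *Tac1* and *Vgf* in α-like cells and of *Tac1*, *Vgf* and *Ucn3* in β-like cells, as counted (filled) and after thinning cells of at least 4000 UMIs to that number (open), with 95% exact binomial intervals. The vertical axes differ between panels. Thinned *Ucn3* shares are 46.6% untreated and 10.8% with IL-1B, and thinned *Tac1* shares of α-like cells are 1.25% and 13.5%.

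To set these values against the transcriptome, genes with a mean of at least 10 CPM over the 4 libraries of a class were counted when they lay 2-fold or more from untreated on the scale of CPM plus 1. Of the members, *Gal*, *Tac1* and *Vgf* passed this level in α-like cells and *Tac1*, *Vgf* and *Ucn3* in β-like cells. In α-like cells all 3 lay at least 2-fold higher with IL-1B, as did 7.76% of 8122 genes, and all 3 with both cytokines, as did 9.01%. None of the 3 was 2-fold lower, against 7.5% of genes with IL-1B and 11.1% with both. With IFNg none was higher, against 4.76%, and 1 was lower, *Tac1*, against 1.07%. As these genes were chosen by this contrast, nothing is read from the counts in α-like cells. In β-like cells *Tac1* and *Vgf* were at least 2-fold higher with IL-1B, as were 16.2% of 7482 genes, and with both, as were 10.5%. *Ucn3* was at least 2-fold lower with IL-1B, as were 2.34% of genes, and with both, as were 5.09%. With IFNg *Vgf* was higher, as were 3.82% of genes, and no member was lower, against 0.0802%. In β-like cells *Tac1* and *Vgf* were under 10 CPM untreated and passed the minimum through treated libraries, so their counts as higher are likewise a description.

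The scale itself moved with the hormones. The median of all 7482 genes in β-like cells lay 0.43 above untreated on the log2 scale with IL-1B, 0.32 with IFNg and 0.11 with both. Leaving hormone genes out of the totals moved these medians by -0.42, -0.29 and -0.20. The *Vgf* log2 ratio of 2.49 with IL-1B was then 2.06. On that scale 6.91% of genes in β-like cells were at least 2-fold higher and 6.62% lower with IL-1B, 2.31% and 0.374% with IFNg, and 8.33% and 8.37% with both. In α-like cells with IFNg these were 3.95% and 1.77%. In α-like cells the medians were -0.03, 0.09 and -0.14 and moved by -0.10 or less in size. The inducible nitric oxide synthase *Nos2*, a known cytokine target, was at 0.0497, 136, 2.5 and 636 CPM in β-like cells and at 0, 30.9, 3.84 and 170.1 CPM in α-like cells. Thus *Nos2* was higher with both cytokines than with IL-1B in either class, whereas β-like *Gal*, *Tac1* and *Npy* were lower.

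**Figure D4:**
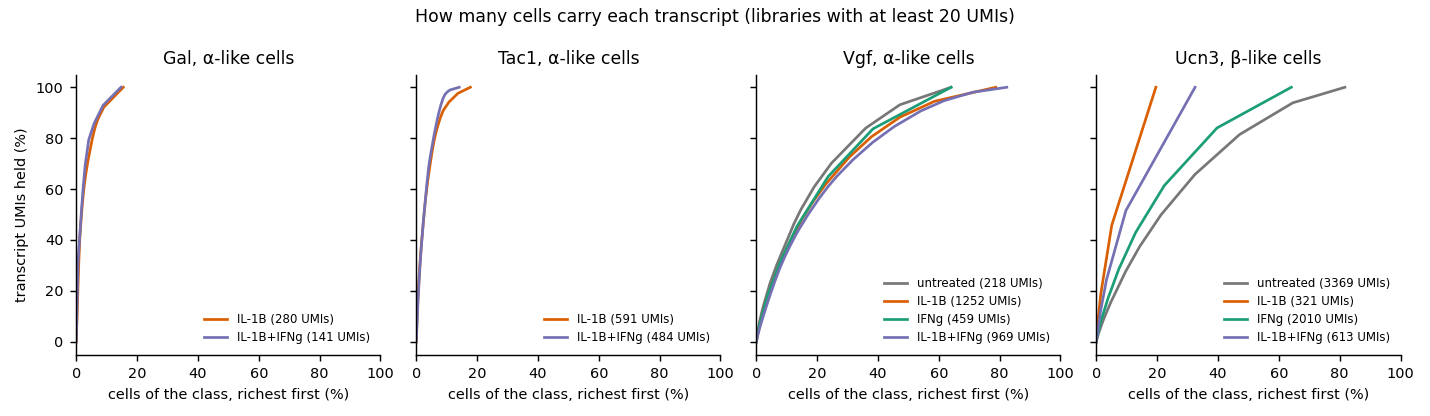
Cumulative share of the UMIs of a transcript (vertical axis) against the share of cells of the class, ordered from the richest cell (horizontal axis), for libraries with at least 20 UMIs. *Gal* and *Tac1* reach 100% within 15.5% and 17.8% of α-like cells with IL-1B, whereas *Vgf* needs 78.7% of them.

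Cells with and without *Tac1* carried *Gal* at similar shares, with overlapping intervals, in α-like cells treated with IL-1B. Among cells thinned to 4000 UMIs, *Gal* was found in 6 of 42 cells with *Tac1* (14.3%, 5.43% to 28.5%) and in 38 of 268 without it (14.2%, 10.2% to 18.9%). *Vgf* was found in 71.4% and 73.5% of the same cells. With both cytokines, *Gal* was found in 4 of 22 cells with *Tac1* (18.2%, 5.19% to 40.3%) and in 9.79% of 143 without, and *Vgf* in 90.9% (70.8% to 98.9%) and 72.7% (64.7% to 79.8%). The intervals of each pair overlapped. Among thinned β-like cells with IL-1B, 18 of 253 *Nos2*-positive cells held *Ucn3* (7.11%, 4.27% to 11.01%). So did 103 of 871 *Nos2*-negative cells (11.8%, 9.76% to 14.2%). With both cytokines the shares were 11.7% of 759 and 15.0% of 515. Both pairs of intervals overlapped. *Tac1* was found in 3.16% and 3.21% of the thinned β-like *Nos2*-positive and *Nos2*-negative cells with IL-1B, and in 2.37% and 1.55% with both. As counted, the shares with IL-1B were 6.40% of 344 cells (4.05% to 9.52%) and 2.80% of 856 (1.80% to 4.14%). With both they were 3.77% of 929 and 1.33% of 377. The counted *Nos2*-positive cells with IL-1B were deeper, with a median of 9273.5 UMIs against 7927. Thinning sets depth equal but also moves cells with few *Nos2* UMIs to the negative group.

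Receptors for these peptides were mostly sparse or not detected. Of 16 receptor and binding protein genes listed, 4 had no UMI in the kept cells of any library (*Tacr2*, *Npy2r*, *Npy5r* and *Npy6r*), and 7 had between 1 and 20 UMIs in all. *Tacr1*, the substance P receptor, had 2 UMIs. *Galr1*, an inhibitory galanin receptor, was in β-like cells at 19.2 CPM untreated, 5.24 with IL-1B, 25.1 with IFNg and 1.24 with both (387, 54, 362 and 20 UMIs). The ratio to untreated was 0.273 with IL-1B (0.201 to 0.363) and 0.0647 with both (0.0391 to 0.101), and it was 1.31 with IFNg (1.13 to 1.51). So the β-like level of *Galr1* was lower in the libraries in which *Gal* was higher. *Galr1* had 0, 0, 3 and 0 UMIs in α-like cells. *Galr3* was at 7.45, 6.7, 4.71 and 5.16 CPM in β-like cells. *C3ar1*, a complement receptor that also binds a *Vgf* peptide, was found chiefly in macrophage-marked cells, at 525, 870.1, 736 and 582 CPM. *Crhr1*, a receptor of the corticotropin-releasing hormone family, had 3, 4, 3 and 14 UMIs in β-like cells. *Crhr2*, the other listed receptor of that family, had 4, 2, 1 and 5 UMIs in kept cells of all classes. Of the 2 receptor or binding protein genes with a sufficient level in β-like cells, *Galr1* and *C1qbp*, *Galr1* was at least 2-fold lower with IL-1B and with both, as were 2.34% and 5.09% of all genes. *Galr1* passed the minimum through the untreated and IFNg libraries, where it was high, so that count is a description. In α-like cells *C1qbp* alone had that level and was not past 2-fold.

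Of 49 other peptide precursors listed, 48 were among the genes counted and 6 had a mean of 10 CPM or more in β-like cells. With both cytokines 2 of the 6 were at least 2-fold higher, as were 10.5% of all genes, none was lower, against 5.09%, and the list's median log2 ratio was 0.12, beside 0.11 for all genes. The 2 higher genes were *Pdyn*, the prodynorphin precursor of opioid peptides, at 10.8, 69.2, 27.1 and 51.5 CPM, and *Adm2*, a peptide of the adrenomedullin family, at 3.88, 16.1, 7.9 and 14.9 CPM. *Adm2* passed the minimum through the libraries with IL-1B, so its count as higher is a description. In α-like cells 10 were measured at this level, of which 1 was higher and 2 lower with both cytokines, against 9.01% and 11.1% of all genes, with a median of -0.06 beside -0.14 for all genes. With IL-1B alone 1 was higher and 3 were lower, against 7.76% and 7.5% of all genes, with a median of -0.37 beside -0.03. *Iapp*, the amylin precursor, was at 2147, 7255, 2351 and 5476 CPM in α-like cells, 3.38-fold (3.22 to 3.54) above untreated with IL-1B. Its levels were 43902 to 62770 CPM in β-like and 29217 to 51232 CPM in δ-like cells. In the same α-like cells the median insulin share was 0.52%, 0.0915%, 0.21% and 0.103%, and *Sst*, the somatostatin gene, was at 206.8, 2115, 634 and 1632 CPM. The part of transcripts from other cells in the *Iapp* values was not tested. In α-like cells *Edn3*, the endothelin 3 precursor, was at 29.4, 8.89, 47.0 and 5.21 CPM, and *Bdnf*, a neurotrophin, was at 22.6, 21.2, 8.11 and 4.56 CPM. Both passed the minimum through libraries where they were high, so their count as lower is a description. In δ-like cells *Nts*, the neurotensin precursor, had 0, 2, 18 and 44 UMIs, in 34 to 115 cells per library.

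Of 17 genes for prohormone processing and granule content, 13 were measured at this level in β-like cells. With IL-1B 5 of them were at least 2-fold higher, as were 16.2% of all genes, and none lower, against 2.34%, with a list median log2 ratio of 0.11 beside 0.43 for all genes. The 5 were the carboxypeptidases *Cpe* (988, 2078, 1400, 1332 CPM) and *Cpd*, the amidating enzyme *Pam*, which completes peptides such as galanin, substance P and neuropeptide Y, the granin *Chgb* and the protease *Ctsl*. With hormone genes left out of the totals none of the 5 was past 2-fold, with log2 ratios of 0.60 for *Cpd*, 0.64 for *Cpe*, 0.81 for *Chgb*, 0.87 for *Pam* and 0.91 for *Ctsl*. On that scale none of the 13 was at least 2-fold higher, against 6.91% of all genes. On it 2 of the 13, *Pcsk1n* and *Chga*, were lower, as were 6.62% of all genes. With both cytokines and hormone genes in the totals, none of the 13 passed 2-fold, against 10.5% of all genes higher and 5.09% lower. In α-like cells *Ctsl* was higher (753, 1852, 829.9 and 1224 CPM) and the convertase *Pcsk7* lower (33.9, 13.5, 19.6 and 20.2 CPM) with IL-1B among 12 measured, against 7.76% and 7.5% of all genes. None of the 12 passed 2-fold with both, against 9.01% of all genes higher and 11.1% lower.

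**Figure D5:**
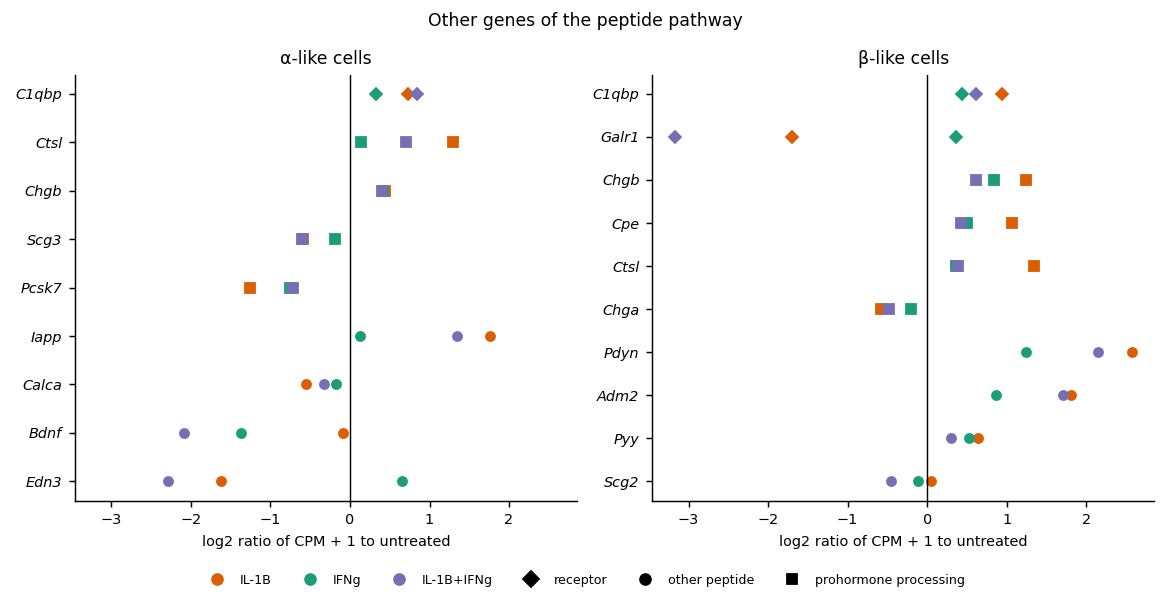
Log2 ratio of CPM plus 1 to untreated for receptors, other peptide precursors and processing genes that had the largest ratios with both cytokines in α-like and β-like cells. In β-like cells of the IL-1B libraries *Galr1* lies lowest and *Pdyn* highest. In α-like cells of these libraries *Edn3* lies lowest and *Iapp* highest.

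Across the 16 combinations of 4 classes and 4 libraries, Pearson correlations of log2(CPM + 1) were used to name the 3 genes most like each member among those with a mean of 10 CPM or more. These points share libraries, depth and hormone content, so the values are descriptive. *Mafg* (0.92), *Gla* (0.90) and *Dusp1* (0.90) were most like *Gal*, and *Ddx21* (0.94), *Akr1b8* (0.92) and *Pgs1* (0.91) were most like *Tac1*. For *Vgf* the ribosomal protein genes *Rps24* (0.94) and *Rpl26* (0.93) were among the 3. The genes most like *Npy* were *Wdr37* (0.92), *Gosr1* (0.88) and *Lats1* (0.87). *Ucn3* was most like *Ins1* (0.95), *Ins2* (0.93) and *Msln* (0.93). Among the members *Gal* and *Tac1* had a value of 0.70, *Tac1* and *Vgf* 0.68, *Gal* and *Vgf* 0.62, and *Ucn3* had values from -0.35 to 0.11 with the other 4.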

How the data were processed

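The members and gene lists were chosen with earlier results of these data known. Per the labels, libraries were made with a version 2 reagent kit of 10x Genomics, whereas the methods name version 3. The authors demultiplexed and counted reads with CellRanger, and the deposited matrices hold raw UMI counts per gene and barcode, without normalization. Their headers give software version 3.0.0, and the submitters' processing notes name build mm10. Neither labels nor headers name their gene annotation. The submitted totals were 50731370, 20056630, 31209339 and 25716645 UMIs in 3486, 2911, 3694 and 2480 barcodes (untreated, IL-1B, IFNg and both).

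The software was Python 3.11.15 with pandas 2.3.3, scipy 1.17.1 and numpy 2.4.6. Counts were summed per class and library, with exact Poisson 95% intervals for CPM, exact conditional binomial intervals for ratios and exact binomial intervals for shares. Cells were not treated as replicates. Ratios against no UMIs were not given, and 3 UMIs was the floor. Counts are of 3′ ends and are not scaled to length, so levels were not compared between genes. Macrophage-marked and endothelial-marked cells lacked a leading hormone and had at least 3 markers of 1 of these lists and fewer of the other. Genes were named by a rule: the members, the list genes with the 4 largest ratios with both cytokines per list and class, and the 3 most similar genes. A few genes that these rules or lists hold are not reported here. Simulated counts, with 200 of 7439 genes in β-like and of 8090 in α-like cells changed 4-fold between the untreated library and that with both cytokines, gave 100% and 100% of the higher and 100% and 94% of the lower ones past 2-fold. Of the unchanged genes, 0% in β-like and 1.79% in α-like cells also lay past 2-fold. These counts were Poisson draws of class sums from 1 mean profile per class. They held no clustering of UMIs in a few cells, so they set no error rate for genes such as *Gal* and *Tac1*. The alternatives are given in the closing section. No doublet caller was used in the values reported, and in 1 alternative Scrublet (scanpy 1.11.5, expected rate 0.05) called 11, 22, 21 and 21 cells. GENCODE M21 matched 30934 of 31053 identifiers.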

Additional observations from a re-analysis of the deposited data

Results flagged for a closer look

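The response of *Vgf* to IFNg alone ran in opposite directions in β-like cells, at a ratio of 2.34 to untreated, and in α-like cells, at 0.795. PP-like cells were also below untreated, at 0.165 from 2 UMIs against 9. The β-like log2 ratio of 1.23 was 0.65 as a mean over cells, and the β-like median of all genes was 0.32. This difference between classes was not tested, since each condition had 1 library. Cells of mixed hormones (392 in all) entered none of the comparisons and also held *Gal*, *Tac1* and *Vgf* at levels above those of the untreated library. In these cells *Gal* was at 160 CPM with IL-1B (204 UMIs in 19 of 149 cells, 81.4% of them in 5 cells) and at 25.8 CPM with IFNg (25 UMIs in 4 of 121 cells, 22 of them in 1 cell), against 11.8 CPM with both (8 UMIs) and none in 42 untreated cells. *Tac1* was at 86.4 CPM with IL-1B and at 287 CPM with both cytokines, where 11 of 80 cells held 195 UMIs and the 5 richest of them 91.8%, and was at 0 untreated. *Vgf* was at 166 CPM with IL-1B, 54.7 CPM with IFNg and 116 CPM with both, against 14.1 CPM untreated (5 UMIs). Its ratio to untreated with IFNg was 3.89 (1.57 to 12.5) in these cells.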

How the results depend on the processing

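Each condition had 1 library, so none was left out, and no paired analysis was possible because no condition had a second library. Of 305 log2 ratios given by the alternatives, 4 changed sign: *Gal* in α-like cells with IFNg, from -0.08 to 0.16 with a hormone lead of 2 times, 0.29 as a mean over cells and 0.43 without an upper gene limit, and *Npy* in α-like cells with IFNg, from 1.60 to -0.81 after thinning, which as reported rest on 8 or fewer UMIs per library. Thinning gave no value for 7 ratios and leaving out the 5 richest cells for 18, including *Gal* and *Tac1* in α-like cells. The alternative without the 5 richest cells, and the count of receptor, peptide and processing genes with hormone genes left out of the totals, were chosen after seeing the data. That count went from 5 higher to 0 for processing genes in β-like cells with IL-1B, where the share of all genes went from 16.2% to 6.91%. The cause of the shifts was not tested.

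Values given are log2 ratios to untreated. After thinning, *Gal* in β-like cells was at 3.06 with IL-1B and 0.49 with both, *Tac1* in α-like cells at 6.40 and 6.64, and *Ucn3* in β-like cells at -0.38 with IFNg. Thinned shares were 13.55% for *Tac1* in α-like cells with IL-1B and 0% with IFNg, and in β-like cells 2.04% with both and 0% with IFNg and untreated. For *Vgf* in α-like cells they were 48.75% untreated, 73.2% with IL-1B, 41.8% with IFNg and 75.15% with both, and in β-like cells 1.82%, 9.88%, 3.74% and 9.34%. For *Ucn3* in β-like cells they were 46.6%, 10.8%, 36.8% and 13.0%. After removal of doublets called by Scrublet, *Gal* in β-like cells with IL-1B was at 2.91. With hormone genes left out of the totals, *Ucn3* in β-like cells was at -2.86 with IL-1B, -0.57 with IFNg and -2.34 with both, and *Vgf* at 2.06 with IL-1B. As a mean over cells, *Ucn3* was at -2.22 and *Vgf* at 1.91 with IL-1B, and *Vgf* at 0.65 with IFNg and 1.89 with both. Without an upper gene limit, *Vgf* in β-like cells was at 1.95, 0.88 and 1.97, its shares were 11.8% untreated and 25.4% with both, and the *Ucn3* share was 85.7% untreated. With a minimum hormone share of 10%, the *Ucn3* shares were 83.9% untreated and 66.8% with IFNg. Without the 5 richest cells, *Vgf* in α-like cells with IL-1B was at 1.34.

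Of tested members past the fold with IFNg, the count of higher ones in β-like cells was 0 instead of 1 with no gene limit, with thinning, with hormones left out, with means over cells and with a 10% hormone share. In α-like cells the lower ones with IFNg numbered 2 with a 10% hormone share and 0 without the 5 richest cells. The percent of genes past 1.5-fold in either direction was 45.4%, 18.5% and 34.1% in β-like cells (IL-1B, IFNg, both) and 35.9%, 21.2% and 41.96% in α-like cells. With no filter on low levels the percent past 2-fold was 11.8% and 2.59% in β-like cells (IL-1B, IFNg). In α-like cells with IFNg the percent past 2-fold was 14.4% with no such filter and 13.7% after thinning.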
